A study of Mus musculus with 4 samples.

Results

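The genes described here are 37 genes of T cell receptor signalling and T cell identity, taken as every probe whose gene name in the scanner files is one of the 37 names. They are 37 of the 28663 genes on the array and were read by 53 of its 39429 probes. Their levels were measured in bronchial epithelial cells isolated from mouse lungs in an ovalbumin (OVA) model of asthma, on 4 single-colour arrays. The groups were challenged mice labelled Pla2g3-/-, control mice labelled Pla2g3-/-, challenged wild-type mice (Pla2g3+/+) and control wild-type mice (Pla2g3+/+). The Pla2g3 gene product, group III phospholipase A2, is secreted and cleaves membrane phospholipids. Challenged mice had been injected with 10 µg OVA and 1.3 mg alum in 0.2 ml on days 0 and 14 and had inhaled 1% OVA for 30 min on days 26, 27 and 28, and tissue was taken 3 h after the last challenge. What the control mice received, and their strain and age, the labels do not state. Each group was 1 array of RNA pooled from 4 samples, so no difference between 2 arrays has a replicate check and none is given a p-value.

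T cells recognise peptides on MHC molecules through a receptor whose alpha and beta chains bind the ligand but have no signalling tail of their own. The signal is carried by the CD3 chains and the zeta chain, whose tails hold immunoreceptor tyrosine-based activation motifs (ITAMs). The kinase LCK, held by the coreceptors CD4 and CD8, phosphorylates these motifs, ZAP-70 docks on them and phosphorylates the adaptor LAT, and LAT gathers the enzymes that open the calcium, RAS and NF-kB branches. In the allergic lung, helper T cells of type 2 release the cytokines that call in eosinophils and drive mucus, while epithelial cells themselves carry no T cell receptor. The genes were ordered by 7 roles along this chain.

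The probe sequences of 2 receptor chains are shown because they lie over the signalling motif itself. All 53 probes were searched for the ITAM pattern in 1 frame. It was a tyrosine codon, 2 codons, a leucine or isoleucine codon, then a spacer of several codons and the same again. The search found it in 2 probes, both with leucine codons and a spacer of 7 codons, and neither frame held a stop codon. Both sequences are from the scanner files, 5′ to 3′, with the tyrosine and leucine codons in capitals. The Cd3d gene lies at chr9:44981769-44987052 and the Cd247 gene at chr1:165779952-165871153 (RefSeq, GRCm38.p6), and the files place neither probe on mm9, the build of their probe positions. The file annotates this Cd247 probe to transcript variant eta.
Cd3d: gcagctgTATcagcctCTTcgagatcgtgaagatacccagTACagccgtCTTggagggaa
Cd247: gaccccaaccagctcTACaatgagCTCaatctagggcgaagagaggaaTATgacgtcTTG

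Levels are given as the log2 of an array's processed signal minus that array's 75th percentile, so 0 is the 75th percentile and 1 unit is 2-fold. Each gene is represented by its brightest probe. A level is set only against the level of the same gene on another array. The probe signal rises with the share of T cells and with the RNA per cell alike, so fewer T cells and less of a transcript in each cannot be told apart. On each array, probes printed 10 times had a median SD of 0.07 between spots, which gives an SD of 0.10 for a difference. As the scanner software estimates it, the error of such a difference had a median of 0.20 over the 37 genes and reached 0.71 for Ctla4.

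Pla2g3 itself read 4154 intensity units on the challenged and 2023 on the control array labelled Pla2g3-/-, against 254 on the challenged and 239 on the control wild-type array. Its second probe read 336 and 177 units on the challenged and control arrays labelled Pla2g3-/-, against 13.1 and 44.1 units on the challenged and control wild-type arrays. This goes against the label, since the genotype labelled as lacking the gene had the higher signal on both probes, and the labels do not say whether the probes lie in the deleted part. The samples are therefore called labelled Pla2g3-/- throughout, and each genotype difference takes its direction from that label. All 11 epithelial marker genes (among them Epcam, Krt8 and Scgb1a1) were well above background on all 4 arrays, and none differed 2-fold in any comparison. Their summed signal, in multiples of the 75th percentile, was 531 and 570 on the challenged and control arrays labelled Pla2g3-/-, against 600 and 588 on the challenged and control wild-type arrays. Of the 37 T cell genes, 35 were well above background on all 4 arrays, as were 22234 of all 28663 genes.

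The control array labelled Pla2g3-/- stood apart for the T cell genes. Of the 35 genes measured on all 4 arrays, 30 were highest there, where 28.0% of all 22234 such genes were highest. The challenged array labelled Pla2g3-/- was the highest for 3 (21.0% of all genes), the challenged wild-type array for 1 (21.4%) and the control wild-type array for 1 (29.5%). The challenged wild-type array was the lowest of the 4 for 32 of the 35, against 17.8% of all genes. The challenged array labelled Pla2g3-/- was the lowest for 2 (38.6%), its control for 1 (24.6%) and the wild-type control for 0 (19.0%). The order from high to low was labelled Pla2g3-/- control, labelled Pla2g3-/- challenged, wild-type control, wild-type challenged for 16 genes. For 13 genes the wild-type control came second, ahead of the challenged array labelled Pla2g3-/-. The remaining 6 were Icos, Il2rb, Klf2, Ets1, Cd247 and Ccr7, each described under its role.

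**Figure D1:**
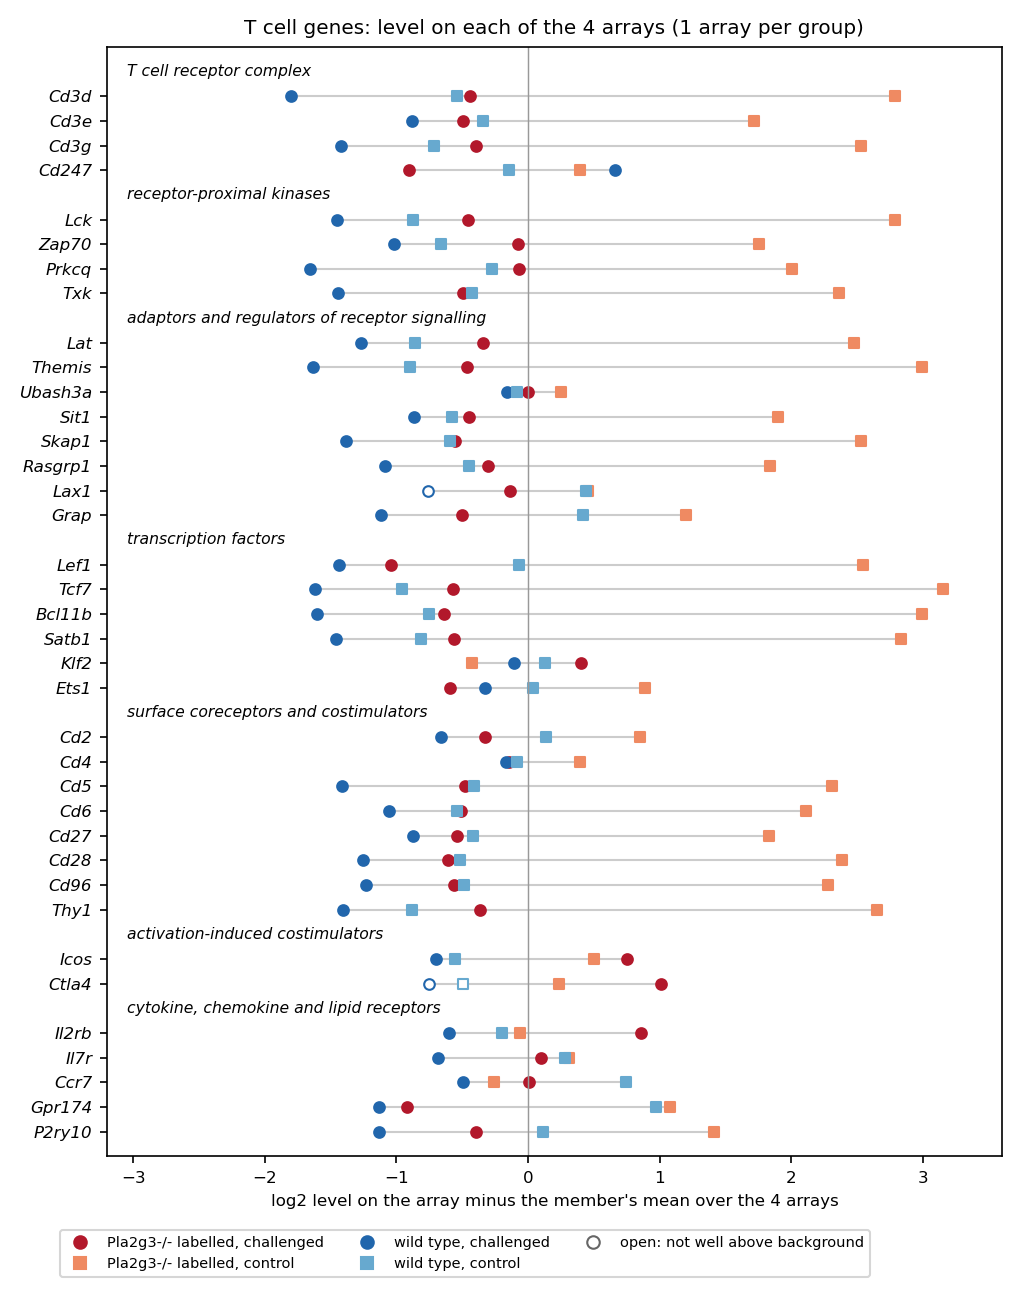
Level of each T cell gene on each array, as log2 distance from the gene's mean over the 4 arrays (x axis), with genes grouped by role down the page. Red and orange symbols are arrays labelled Pla2g3-/- and blue symbols wild-type arrays, circles are challenged and squares are control, and open symbols are not well above background. The orange squares, the control array labelled Pla2g3-/-, lie farthest right for 30 of the 35 genes measured on all 4 arrays.

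Without challenge, 24 of the 37 genes were at least 2-fold higher in cells labelled Pla2g3-/- than in wild-type cells and 0 were 2-fold lower. Over all 23947 genes measured in this comparison, 3.19% were 2-fold higher and 1.8% were 2-fold lower. The median difference was 2.29 over the 37 genes and -0.03 over all genes. Under challenge, 9 of 37 were 2-fold higher and 1 was 2-fold lower in the labelled cells, against 3.84% and 2.48% of all 23853 genes, with a median of 0.78 over the 37 and -0.05 over all genes. Challenge in the cells labelled Pla2g3-/- went with 28 of 37 genes at least 2-fold lower and 0 higher (all 23741 genes: 3.42% lower, 3.87% higher), with a median of -2.21. Challenge in wild type went with 10 of 36 genes 2-fold lower and 0 higher (all 24080 genes: 1.68% lower, 1.81% higher), with a median of -0.68. With normexp background correction, 4 genes stayed 2-fold higher in challenged cells labelled Pla2g3-/- (Cd3d, Thy1, Icos and Il2rb) and 4 stayed 2-fold lower after challenge in wild type (Cd3d, Grap, Lef1 and Ccr7). The difference between genotypes was above 0 for 35 of 37 genes in controls (46.2% of all genes) and for 35 of 37 under challenge (39.8%). The challenge difference was above 0 for 5 of 37 genes in cells labelled Pla2g3-/- (42.2% of all genes) and for 1 of 36 in wild type (45.7%). Each of the 4 comparisons shares 1 array with 2 of the others, so they are given side by side and not as support for each other. The 37 genes were chosen with earlier results of these data known, so their counts beside those of all genes are a description.

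**Figure D2:**
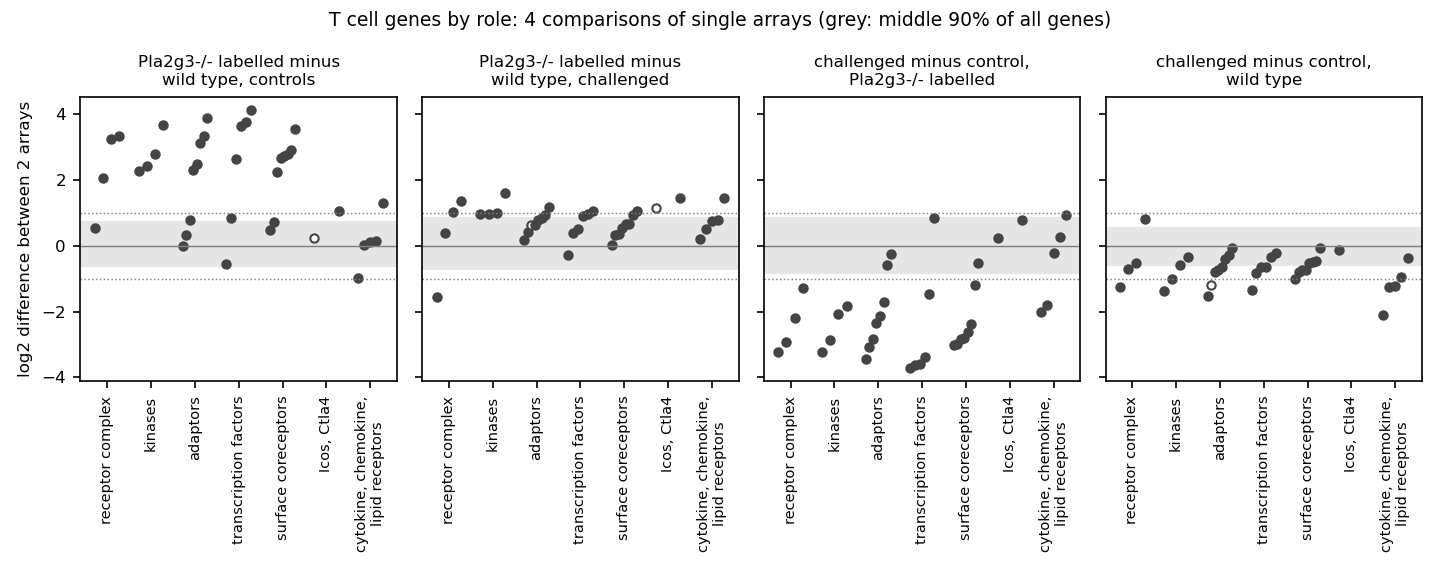
Log2 difference between 2 arrays (y axis) for each T cell gene, by role (x axis), in 4 comparisons. Points are genes, open points are bounds, dotted lines mark 2-fold, and the grey band runs between the 5th and 95th percentiles of all genes. In the left panel 24 of 37 genes lie above the upper dotted line, and in the panel of challenge in cells labelled Pla2g3-/- 28 of 37 lie below the lower one.

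The CD3 chains, which couple the receptor to its kinases, were all at least 4-fold higher on the control array labelled Pla2g3-/- than on the wild-type control. Cd3d had a level of -1.34 on the challenged and 1.89 on the control array labelled Pla2g3-/-, against -2.70 on the challenged and -1.44 on the control wild-type array. Cd3g had levels of -1.97 (challenged) and 0.95 (control) in cells labelled Pla2g3-/-, against -3.0 (challenged) and -2.29 (control) in wild type. Cd3e had levels of -0.31 (challenged) and 1.90 (control) in cells labelled Pla2g3-/-, against -0.70 (challenged) and -0.16 (control) in wild type. For each of the 3 chains 1 array was high and the other 3 were lower and closer together. The control difference between genotypes was 3.33 for Cd3d, 3.24 for Cd3g and 2.06 for Cd3e, or 10.1-fold, 9.44-fold and 4.18-fold. Under challenge the same difference was 1.36, 1.03 and 0.38.

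Cd247, the zeta chain with its several ITAMs, gave a probe-dependent answer. Its brightest probe, at chr1:167800324-167800383 (mm9) and annotated to transcript variant theta, had levels of -5.90 and -4.60 on the challenged and control arrays labelled Pla2g3-/-, against -4.33 and -5.14 on the challenged and control wild-type arrays. On this probe Cd247 was the only 1 of the 35 genes measured on all arrays with its highest level on the challenged wild-type array. It was also the only gene at least 2-fold lower in challenged cells labelled Pla2g3-/- than in challenged wild type (-1.57), a call lost with normexp background correction (-0.76) and with the mean of its probes (-0.19). The eta-annotated probe printed above, which covers the ITAM, had levels of -6.98 and -3.40 on the challenged and control arrays labelled Pla2g3-/-, against -8.16 (not well above background) and -5.70 on the challenged and control wild-type arrays. On it the control array labelled Pla2g3-/- was the highest, with a control difference of 2.30 between genotypes.

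The promoters of Cd3d and Cd3g are shown because these neighbouring genes, transcribed away from each other, differed by nearly the same amount. Their RefSeq gene starts lie 1338 bases apart on GRCm38.p6. Each window of 300 bases spans the start of transcription, most of it upstream, on the gene's own strand. Capitals mark short motifs found on either strand: CTTTGA for TCF/LEF factors, GGAAGT for ETS factors, AGATAA for GATA factors and CAGCTG, an E-box.
Cd3d, chr9:44981536-44981835, plus strand: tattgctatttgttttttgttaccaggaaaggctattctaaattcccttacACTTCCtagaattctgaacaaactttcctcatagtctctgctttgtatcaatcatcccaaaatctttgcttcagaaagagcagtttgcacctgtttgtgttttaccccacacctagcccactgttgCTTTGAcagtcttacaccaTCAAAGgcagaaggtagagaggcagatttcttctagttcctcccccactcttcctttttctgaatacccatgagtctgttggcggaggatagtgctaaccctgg
Cd3g, chr9:44980382-44980681, minus strand: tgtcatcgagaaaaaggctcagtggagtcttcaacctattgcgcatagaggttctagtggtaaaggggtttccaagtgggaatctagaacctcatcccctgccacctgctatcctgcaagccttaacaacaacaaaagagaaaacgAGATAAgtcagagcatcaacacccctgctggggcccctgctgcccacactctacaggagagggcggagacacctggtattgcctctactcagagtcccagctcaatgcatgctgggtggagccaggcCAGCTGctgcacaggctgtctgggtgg

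A promoter sequence was found for 26 of the 37 genes (41 windows of 300 bases, against 32841 windows for 27018 genes in all). Motifs were counted per window, because the 26 genes have more windows each, and as a description of letters and not of binding. Windows of 1 gene can overlap, as for Satb1 and Lef1, so they are not independent. GGAAGT stood in 43.9% of the 41 windows, against 23.8% of all windows, and CTTTGA in 26.8%, against 16%. TGTGGT, a RUNX motif, stood in 24.4%, against 16.8%, AGATAA in 17.1%, against 11.2%, and CAGCTG in 14.6%, against 16.3%. For the TCF/LEF, ETS and GATA motifs, genes of such factors are described here, Lef1, Tcf7 and Ets1 as members and Gata3 in a further list. A link between the motifs and the levels of these genes was not tested.

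Among the 4 receptor-proximal kinases, Lck had the largest genotype difference. Lck, the kinase that starts the signal, had levels of 0.49 on the challenged and 3.73 on the control array labelled Pla2g3-/-, against -0.51 on the challenged and 0.07 on the control wild-type array. The control difference of 3.66 is 12.6-fold and the challenged difference 0.99. All 4 kinases were at least 2-fold higher in control cells labelled Pla2g3-/- and at least 2-fold lower after challenge in those cells. Zap70, which docks on phosphorylated ITAMs, had levels of -0.76 (challenged) and 1.07 (control) in cells labelled Pla2g3-/-, against -1.70 (challenged) and -1.35 (control) in wild type. Its second probe gave a control difference of 2.31 beside 2.41 on the first.

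Prkcq, the protein kinase C theta of the NF-kB branch, differed by 2-fold or more in all 4 comparisons. Its levels were -4.35 (challenged) and -2.28 (control) in cells labelled Pla2g3-/-, against -5.94 (challenged) and -4.56 (control) in wild type. The difference between genotypes was 2.28 in controls and 1.59 under challenge, and challenge went with -2.07 in cells labelled Pla2g3-/- and -1.37 in wild type. With normexp the difference under challenge was 0.64 and the challenge difference in wild type -0.54, both under 2-fold. Txk, a TEC-family kinase, had levels of -4.31 and -1.45 on the challenged and control arrays labelled Pla2g3-/-, against -5.26 and -4.24 on the challenged and control wild-type arrays. Its challenge difference was -2.86 in cells labelled Pla2g3-/- and -1.02 in wild type (-0.53 with normexp).

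Of the 8 adaptors and regulators, 5 were at least 2-fold higher in control cells labelled Pla2g3-/- than in wild-type controls, and 3 were not. Lat, the scaffold that ZAP-70 phosphorylates, had levels of -1.77 (challenged) and 1.05 (control) in cells labelled Pla2g3-/-, against -2.70 (challenged) and -2.29 (control) in wild type. Themis, a regulator needed for thymocyte selection, had levels of -5.08 and -1.63 on the challenged and control arrays labelled Pla2g3-/-, against -6.25 and -5.52 on the challenged and control wild-type arrays. The control difference was 3.34 for Lat and 3.89 for Themis, or 10.1-fold and 14.8-fold. Skap1, an adaptor in integrin activation, differed by 3.12, Sit1, an inhibitory transmembrane adaptor, by 2.48 and Rasgrp1, an activator of RAS, by 2.29. After challenge in the cells labelled Pla2g3-/-, these 5 genes were lower by differences between -3.45 (Themis) and -2.14 (Rasgrp1).

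The 3 adaptors that stayed under 2-fold in the control comparison were Grap, Ubash3a and Lax1. Grap, a relative of the RAS adaptor GRB2, had levels of -3.12 (challenged) and -1.42 (control) in cells labelled Pla2g3-/-, against -3.74 (challenged) and -2.20 (control) in wild type. It was lower on both challenged arrays than on both control arrays, with challenge differences of -1.70 and -1.54. Ubash3a, a negative regulator, had levels of -4.70 (challenged) and -4.45 (control) in cells labelled Pla2g3-/-, against -4.86 (challenged) and -4.78 (control) in wild type. The 4 arrays were thus close together on this probe, while the 10-spot probe gave a control difference of 0.80. After challenge in cells labelled Pla2g3-/-, the 10-spot probe gave -1.08, past 2-fold, and the brightest probe -0.25. Lax1, a further inhibitory adaptor read by a 10-spot probe, was not well above background on the challenged wild-type array. It differed by 0.00 between the control arrays, and its challenge difference was -0.59 in cells labelled Pla2g3-/- and -1.21 in wild type, where it is at least 2.31-fold lower. With normexp the wild-type value was -0.17.

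The transcription factors of T cell identity held the largest control difference of the 37 genes. Tcf7, the factor TCF1 of early T cells and thymocytes, had levels of -2.87 on the challenged and 0.85 on the control array labelled Pla2g3-/-, against -3.92 on the challenged and -3.26 on the control wild-type array. That difference was 4.11, or 17.3-fold, and its second probe gave 4.09. Lef1, the partner of TCF1, had levels of -2.45 (challenged) and 1.14 (control) in cells labelled Pla2g3-/-, against -2.84 (challenged) and -1.48 (control) in wild type. Bcl11b, which fixes the T cell fate, and Satb1, a chromatin organiser of thymocytes, differed by 3.75 and 3.64 between the control arrays. After challenge in the cells labelled Pla2g3-/-, these 4 factors were lower by differences between -3.72 (Tcf7) and -3.39 (Satb1). In wild type the same comparison gave -1.35 for Lef1 and between -0.84 and -0.65 for the other 3.

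Klf2 and Ets1 are factors that other cell types of the lung also express, and neither reached 2-fold between the control arrays. Klf2, which keeps T cells quiescent and is also prominent in endothelium, had levels of 1.39 (challenged) and 0.56 (control) in cells labelled Pla2g3-/-, against 0.88 (challenged) and 1.11 (control) in wild type. It was the only member above background on all 4 arrays whose lowest level was on the control array labelled Pla2g3-/-. The 8 endothelial markers had a median control difference between genotypes of -0.85, with 4 at least 2-fold lower in cells labelled Pla2g3-/- (1.8% of all genes). After challenge in those cells the median difference of these markers was 0.97. Their part in the Klf2 values was not tested. Ets1 had levels of -1.66 (challenged) and -0.18 (control) in cells labelled Pla2g3-/-, against -1.39 (challenged) and -1.03 (control) in wild type. Unlike Klf2, Ets1 was highest on the control array labelled Pla2g3-/-, with a control difference of 0.85. Its challenge difference in cells labelled Pla2g3-/- was -1.48, past 2-fold, and -1.32 on its second probe.

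Of the 8 surface coreceptors and costimulators, 6 were at least 2-fold higher in control cells labelled Pla2g3-/- and 7 were at least 2-fold lower after challenge in those cells. Thy1, a surface protein of mouse T cells and thymocytes, had levels of 0.86 on the challenged and 3.87 on the control array labelled Pla2g3-/-, against -0.18 on the challenged and 0.34 on the control wild-type array. Its control difference of 3.53 is 11.6-fold. The costimulator Cd28 differed by 2.90, the adhesion receptor Cd96 by 2.77, the scavenger-type receptors Cd5 and Cd6 by 2.72 and 2.65, and the TNF-receptor family member Cd27 by 2.24 between the control arrays. Under challenge the difference between genotypes lay between 0.34 (Cd27) and 1.04 (Thy1) for these 6 genes. The second probes of Cd6 and Cd27 gave 1.12 and 3.71 in the control comparison, so the size of these differences depends on the probe and the sign does not.

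Cd4 and Cd2 did not reach 2-fold between the control arrays. Cd4, the coreceptor of helper T cells, had levels of 1.35 (challenged) and 1.89 (control) in cells labelled Pla2g3-/-, against 1.33 (challenged) and 1.41 (control) in wild type. Cd4 thus differed by 0.48 in controls and 0.02 under challenge on this probe. Its 10-spot probe was far dimmer on every array. The levels there were -5.54 (challenged) and -4.72 (control) in cells labelled Pla2g3-/-, against -5.58 (challenged) and -5.59 (control) in wild type. The 10-spot probe gave differences of 0.87 in controls and 0.04 under challenge. In humans and rats, macrophages carry CD4 as well as T cells. Cd2, an adhesion receptor of lymphocytes, had a control difference between genotypes of 0.71 and a challenge difference of -1.18 in cells labelled Pla2g3-/- and -0.80 in wild type.

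Icos and Ctla4, which T cells raise once activated, were highest on the challenged array labelled Pla2g3-/-. Icos, a costimulator of helper T cells, had levels of -2.84 (challenged) and -3.09 (control) in cells labelled Pla2g3-/-, against -4.29 (challenged) and -4.15 (control) in wild type. Both labelled arrays were above both wild-type arrays, by 1.44 under challenge and 1.06 in controls, and the second probe gave 1.13 and 0.97. Ctla4, an inhibitory receptor, had levels of -6.68 (challenged) and -7.45 (control) in cells labelled Pla2g3-/- and was not well above background on either wild-type array. The difference between genotypes was thus at least 1.15 under challenge and at least 0.24 in controls, and no challenge difference can be given for wild type. With normexp the difference under challenge was 0.20.

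The 5 cytokine, chemokine and lipid receptors split in several directions. Il2rb, a signalling chain for interleukins 2 and 15 on T and NK cells, had levels of -1.72 (challenged) and -2.64 (control) in cells labelled Pla2g3-/-, against -3.18 (challenged) and -2.78 (control) in wild type. Its difference between genotypes was 1.46 under challenge and 0.14 in controls, and the second probe gave 1.21 and -0.07. Ccr7, which guides naive T cells and dendritic cells to lymph nodes, had levels of -1.29 (challenged) and -1.55 (control) in cells labelled Pla2g3-/-, against -1.79 (challenged) and -0.55 (control) in wild type. It was the only member highest on the wild-type control array, with a control difference between genotypes of -0.99. The 9 B cell markers also had their highest summed signal on that array. The sums were 2.53 and 2.51 on the challenged and control arrays labelled Pla2g3-/-, against 2.37 and 5.86 on the challenged and control wild-type arrays. Of these 9, 6 were at least 2-fold lower in control cells labelled Pla2g3-/- than in wild-type controls (1.8% of all genes). B cells carry Ccr7 as well, and their part in its values was not tested. Il7r, the interleukin 7 receptor of naive and memory T cells, differed by 0.03 between the control arrays, and its challenge difference was -0.21 in cells labelled Pla2g3-/- and -0.95 in wild type.

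Gpr174 and P2ry10 are X-linked receptors for lysophosphatidylserine, a lipid of the kind that phospholipases A release. Gpr174 had levels of -6.38 (challenged) and -4.38 (control) in cells labelled Pla2g3-/-, against -6.59 (challenged) and -4.49 (control) in wild type. It was about 4-fold lower after challenge in both genotypes, by -2.01 and -2.10, and its genotype difference was 0.12 in controls and 0.21 under challenge. With normexp the challenge differences were -1.0 in cells labelled Pla2g3-/- and -0.79 in wild type, and with the mean of its probes -0.89 and -1.11, so the 4-fold size depends on the processing. P2ry10 had levels of -2.70 (challenged) and -0.89 (control) in cells labelled Pla2g3-/-, against -3.44 (challenged) and -2.19 (control) in wild type. Its challenge difference was -1.81 in cells labelled Pla2g3-/- and -1.25 in wild type, with a control difference between genotypes of 1.30.

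The challenge differences of the labelled genotype rest on its control array, so they were also taken with the other control array, a choice made after seeing the data that mixes genotype with challenge. Challenged cells labelled Pla2g3-/- against wild-type controls gave a median of 0.04 over the 37 genes and -0.09 over all genes. Of the 37, 20 were above 0, 3 at least 2-fold higher and 1 at least 2-fold lower (all genes: 4.06% higher, 3.23% lower). The 3 higher genes were Icos (1.30), Il2rb (1.06) and Ctla4 (at least 1.01), and the lower one was Gpr174 (-1.89). Cd3d then differed by 0.09, Cd3e by -0.15, Lck by 0.42 and Tcf7 by 0.39, against -3.24, -2.21, -3.24 and -3.72 with the genotype's own control. Challenged wild-type cells against controls labelled Pla2g3-/- gave a median of -2.77, with 29 of 37 genes at least 2-fold lower (all genes: 4.04%).

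The difference between the challenge effects (labelled Pla2g3-/- minus wild type) uses all 4 arrays and had a median of -1.84 over 35 genes. It was at least 2-fold lower for 23 and at least 2-fold higher for 3 of them, where 2.7% and 2.81% of all 22234 genes were, and above 0 for 6 (45.3% of all genes). The only test across arrays was a limma fit with additive terms for genotype and for challenge, in which a difference between the challenge effects counts as error. It called 0 of 35 members for the average challenge effect and 0 for the average genotype effect after Benjamini-Hochberg adjustment over all 22234 genes, of which it called 5 (0.0225%) and 8 (0.036%). Before adjustment 26 of the 35 had a p under 0.05 for challenge and 26 for genotype, where 15.7% and 12.5% of all genes had. These counts depend on the variance trend of the fit. Without it, 16 of the 35 had such a p for challenge (2907 of all 22234 genes) and 21 for genotype (2832). With the trend, the smallest adjusted p from limma among members was 0.118 for challenge, for Grap (average difference -1.62), followed by 0.123 for Gpr174 (-2.05). For genotype the smallest was 0.12, for Prkcq (average difference 1.94), while Icos had 0.147 (1.25). Without the trend, the smallest adjusted p from limma among members was 0.318 for challenge and 0.236 for genotype.

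Of 40 further genes of T cell receptor signalling, 39 were measured in the control comparison. In cells labelled Pla2g3-/- 15 of the 39 were higher by 2-fold or more and 0 lower (median 0.28), against 3.19% and 1.8% of all genes. The 15 include Ptprc, the leukocyte phosphatase CD45 (1.17), and Vav1, an exchange factor of blood cells (1.13). The largest differences were those of Trat1, an adaptor of the receptor complex (4.42), the CD8 coreceptor chains Cd8a (4.29) and Cd8b1 (4.08), and the adaptor Sla2 (3.05). After challenge in the cells labelled Pla2g3-/-, 9 of the 39 were at least 2-fold lower and 0 higher (all genes: 3.42% lower, 3.87% higher). Under challenge 6 of 39 were at least 2-fold higher in cells labelled Pla2g3-/- than in wild type, against 3.84% of all genes. Pag1, the adaptor that holds the inhibitory kinase CSK, was not well above background on any array.

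Genes of developing T cells in the thymus were also high on the control array labelled Pla2g3-/-. Like the other lists, this one was chosen with earlier results of these data known, so its counts are a description. In control cells labelled Pla2g3-/-, 12 of 16 thymocyte genes were higher than in wild-type controls by 2-fold or more and 0 were lower (median 4.18). Over all genes 3.19% were higher and 1.8% lower. After challenge in cells labelled Pla2g3-/-, 13 of the 16 were at least 2-fold lower (median -3.31), against 3.42% of all genes. The recombinase genes Rag1 and Rag2, which assemble receptor genes, differed by 5.80 and 5.44, Dntt, the terminal transferase of the same process, by 5.60, and Ptcra, the pre-receptor alpha chain, by 4.92. All 16, which include Cd8a and Cd8b1 from the list before, were well above background on all 4 arrays, as were 22234 of all 28663 genes. Their summed signal was 5.60 on the challenged and 31.9 on the control array labelled Pla2g3-/-, against 4.52 on the challenged and 5.22 on the control wild-type array. These values stand beside each result that uses the control array labelled Pla2g3-/-, and their part in the T cell values was not tested.

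Genes of effector and regulatory T cells had a median near 0 in the same comparison. Of 17 measured in the control comparison, 4 were at least 2-fold higher in cells labelled Pla2g3-/- and 0 lower (median -0.02), against 3.19% and 1.8% of all genes. The 4 were Gata3 (3.08), which thymocytes also express, the chemokine receptor Ccr4 (2.26), Pdcd1 (1.27) and Il2ra (1.16). The type 2 cytokines were higher on the challenged arrays. Il5, which recruits eosinophils, was not well above background in either control and was higher after challenge by at least 5.18 in cells labelled Pla2g3-/- and at least 2.76 in wild type. For Il13, which drives mucus, the bounds were at least 4.68 in cells labelled Pla2g3-/- and at least 2.19 in wild type. Il4 and Ifng were higher after challenge by 2.02 and 2.29 in cells labelled Pla2g3-/-, with 0.54 and -0.46 in wild type. Between the challenged arrays the genotype difference was measured, at 2.40 for Il5, 2.46 for Il13, 1.19 for Il4 and 2.18 for Ifng. Of 19 genes of the list measured there, 5 were at least 2-fold higher in cells labelled Pla2g3-/- and 0 lower (median 0.60), against 3.84% and 2.48% of all genes. Foxp3, the factor of regulatory T cells, differed by between -0.09 and 0.09 in the 4 comparisons, and Cd40lg was not well above background on any array.

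Markers of other cell types were read in the same way. Of 8 NK and cytotoxic genes measured in the control comparison, 1 was at least 2-fold higher in cells labelled Pla2g3-/- (Gzma, 1.28; median 0.13). The 7 neutrophil markers had a median difference of 2.65 after challenge in cells labelled Pla2g3-/-, with 5 at least 2-fold higher and 1 lower (Mpo, -1.12). In wild type their median was 1.67, with 4 higher and 0 lower. The 7 macrophage and monocyte markers had a median control difference between genotypes of -0.01, with 1 at least 2-fold lower (Marco, -1.37), and a median of 0.91 under challenge, with 3 at least 2-fold higher. After challenge in cells labelled Pla2g3-/- their median was 0.90, with 3 higher, and in wild type 0.02, with 1 lower (Marco, -2.01). The 7 fibroblast markers had a median control difference of 0.26 with none at least 2-fold. Whether the shares of these cells set the T cell values was not tested.

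**Figure D3:**
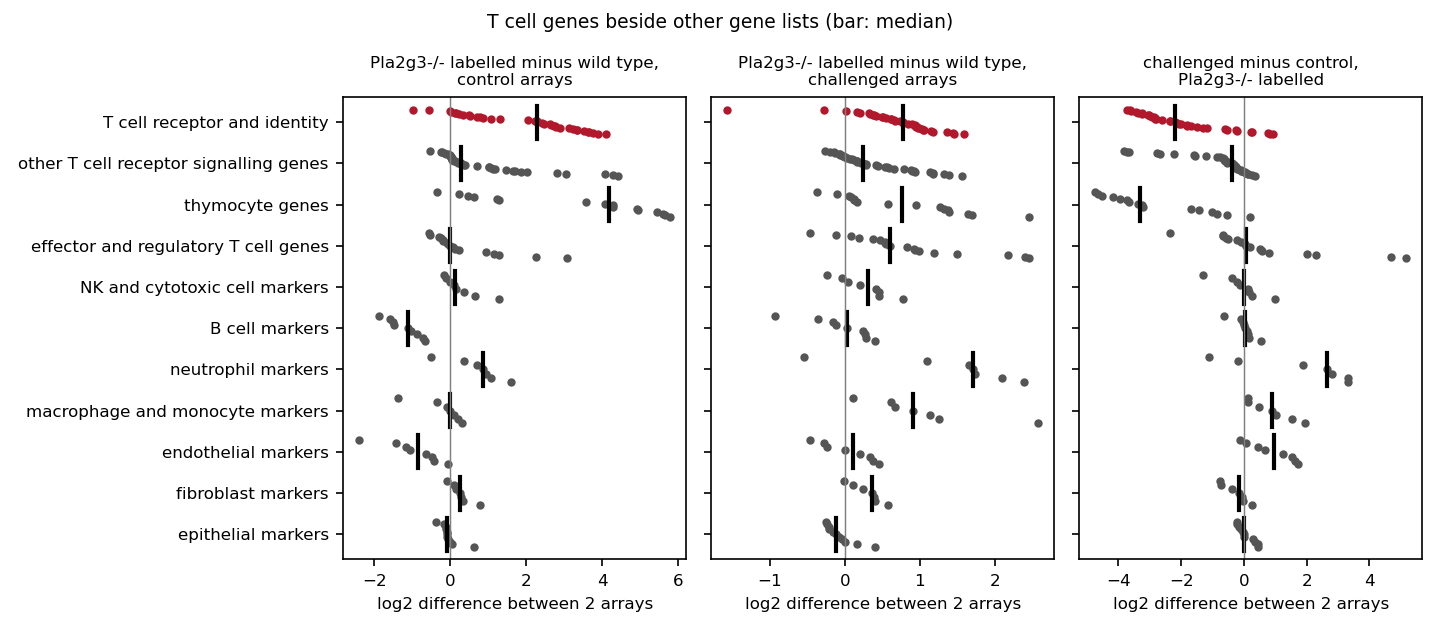
Log2 difference between 2 arrays (x axis) for the T cell genes (red) and the genes of 10 other lists (grey) down the page, in 3 comparisons, with a black bar at each list's median. In the left panel the bar of the T cell genes stands at 2.29, that of the thymocyte genes at 4.18 and that of the epithelial markers at -0.09.

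Probes of the same gene mostly pointed the same way. Of the 16 genes with several probes, 14 had several measured in the control comparison between genotypes, and in 13 all of them had 1 sign, the exception being Il2rb. In the challenge comparison of the labelled genotype this held for 14 of 14, in that of wild type for 11 of 13 and in the challenged comparison between genotypes for 12 of 13. The other 21 genes had 1 probe, so nothing on the array checks them.

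**Figure D4:**
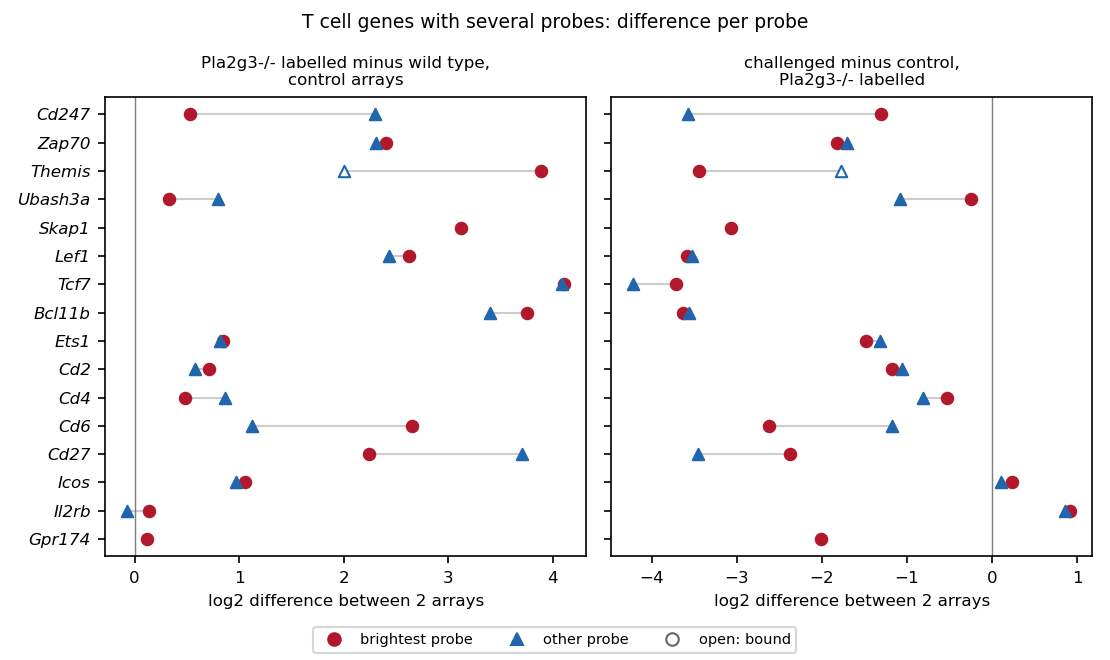
Log2 difference between 2 arrays (x axis) for each probe of the 16 T cell genes with several probes (y axis), in controls between genotypes and after challenge in cells labelled Pla2g3-/-. Red circles are the brightest probe used for the gene, blue triangles the other probe, open symbols bounds. Cd247, Themis, Cd6 and Cd27 have the widest gaps between probes. For Themis the other probe gives only bounds, so its gap is not a measured difference between probes.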

How the data were processed

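Bronchial epithelial cells were measured with 1 single-colour Agilent array per group (4 in all) on RNA pooled from 4 samples, 200 ng per labelling, per the labels' protocols. The authors deposited each array's scanner output, whose spots carry intensity values computed by Agilent Feature Extraction 11.5.1.1, with probes placed on mm9, per the file headers. The deposited series matrix also gives intensity values. Dividing an array's processed signal by 1 constant gave the matrix column for 44397 of 44397 features (the log2 ratio ranged over 1.59e-06 at most). The constants were 1979.15, 1834.61, 1808.23 and 1986.95 (labelled Pla2g3-/- challenged and control, wild type challenged and control). They lie close to the 75th percentiles computed here, 1978.96, 1834.42, 1807.95 and 1985.97. The scale, centring and direction of the matrix are thus known. In the same order, its column medians were 0.0850, 0.0879, 0.0860 and 0.0875. All arrays share 1 slide, where each has its own position, so a position effect and a group effect cannot be told apart.

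The log2 processed signal minus the 75th percentile was computed here over 43020 spots per array that are not controls. Outlier spots (128 to 155 per array) were left out, none was saturated, spots of a probe were averaged, and 19 probes with a missing value were left out. Of the 39429 probes, 28324 took their symbol from RefSeq (GRCm38.p6) by accession, and 2462 had no gene name. A gene was its brightest probe by the mean over the 4 arrays. Where only 1 of the compared arrays is well above background, the difference is a bound ("at least"), for which the dim value was raised to the lowest signal that is well above background if it lay under that. Differences of 2-fold were counted. The median over all genes was within 0.06 of 0 in each of the 4 comparisons, and it was -0.09 and 0.01 with the other control array (challenged cells labelled Pla2g3-/- and challenged wild-type cells). The number of arrays limits the precision.

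A limma 3.58.1 fit with additive terms in R 4.3.3 (1 residual degree of freedom, variance trend, Benjamini-Hochberg at 0.05) was run over genes above background on all 4 arrays and was tested on simulated data. Scripts used Python 3.11.15 with pandas 2.3.3. Alternatives were normexp (offset 50), quantile normalization, the mean of probes, outlier spots kept, genes above background on all 4 arrays and, for limma, no trend and no filter. The genes, roles and lists were chosen with earlier results of these data known. All 37 genes are named. Of each other list, the rule names up to 4 genes with the largest difference between genotypes in controls and up to 4 in each challenge effect, and a defining gene not above background. Ptprc, Vav1, Il4 and Foxp3 were named after their values were seen. Promoters are RefSeq's, on GRCm38.p6.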

Additional observations from a re-analysis of the deposited data

Results flagged for a closer look

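For 4 of the T cell genes the challenge difference had opposite signs in the 2 genotypes, each from 1 array against 1 array, and the difference between the genotypes was not tested. Cd247, on its brightest probe, gave -1.30 in cells labelled Pla2g3-/- and 0.81 in wild type, while its other probe gave -3.58 and, as a bound, -2.13. Klf2 gave 0.83 in cells labelled Pla2g3-/- and -0.23 in wild type. Il2rb gave 0.92 in cells labelled Pla2g3-/- and -0.39 in wild type, and its second probe 0.86 and -0.42. Ccr7 gave 0.26 in cells labelled Pla2g3-/- and -1.24 in wild type. The scanner's own error lay between 0.20 and 0.24 for the brightest probes and was 0.32 and 0.50 for the other Cd247 probe, and the smaller differences of Klf2 in wild type and Ccr7 in cells labelled Pla2g3-/- are close to it.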

How the results depend on the processing

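Of 728 single-gene differences recomputed under the 5 other ways of processing, 2 changed sign: challenge in wild type for Cd247 (0.81, but -0.83 with the mean of probes) and genotype under challenge for Gpr174 (0.21, but -0.07 with normexp). With normexp, the challenge difference in wild type left 4 genes at least 2-fold lower (median -0.50), the median challenge difference in cells labelled Pla2g3-/- was -1.96, the control median between genotypes 2.03, the challenged comparison between genotypes had 4 genes higher and 0 lower (median 0.47), and the difference between the challenge effects had a median of -1.66. Over all genes normexp left 128 higher and 57 lower for challenge in wild type (69.2% higher, against 51.9% without it), 378 and 319 for challenge in the labelled genotype, 358 and 97 for genotype in controls (78.7%, against 64.0%) and 289 and 147 under challenge. Restricted to genes above background on all 4 arrays, the median challenge difference of the labelled genotype was -2.34, and the control median between genotypes 2.41. Quantile normalization put 1 gene past 2-fold lower in the control comparison. The mean of probes gave 0 lower and a median of 0.67 for genotype under challenge, and -1.68 for the difference between the challenge effects. With the other control array, added after seeing the data, challenge in wild type gave 29 lower (median -2.77), and challenge in cells labelled Pla2g3-/- gave 3 higher, 1 lower and a median of 0.04, turned from -2.21. Causes of these shifts were not tested. limma called 0 members under every alternative, and over all genes 0 (no trend) and 8 (no filter) for challenge, and 4 (quantile), 1 (mean of probes), 0 (no trend), 11 (outlier spots kept: 4 higher, 7 lower) and 43 (no filter: 20 higher, 23 lower) for genotype. No paired analysis was possible because each group has 1 array, and for the same reason no array could be left out of a group.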
